A study of Mus musculus with 14 samples.

Results

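The cytosolic ribosomal protein genes encode the protein part of the ribosome that translates nuclear-encoded messages. They were taken as every gene whose symbol is Rpl or Rps followed by a number and an optional letter suffix, together with Rplp0, Rplp1, Rplp2, Rpsa and Fau, and without the S6 kinases and the processed pseudogenes. This gave 83 of the 20492 genes in the tables, 50 of the large (60S) subunit and 33 of the small (40S) subunit. Cortex and hippocampus RNA came from C57BL/6 mice that were 3 months old. Cortex was taken from mice depleted of TRF2 (3 samples) and from controls (4 samples), and hippocampus from mice depleted of TRF2 (3 samples) and from controls (3 samples). TRF2, encoded by Terf2, is the shelterin protein that keeps chromosome ends from being treated as breaks. The design text gives the depleted line as TRF2-DCX-cre and the other as WT. Dcx is a gene of newborn and migrating neurons, so cells in which that promoter was never active keep the gene. The hippocampus table holds a further condition headed DKO. No label describes it, so its genotype, age and number of samples are not known here, and its values are given as the table has them. A further TRF2-depleted sample has a hippocampus title and a cortex tissue tag and was left out of the groups.

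The tables hold 1 pooled value for each condition and coding-sequence row, as FPKM, a fragment count set relative to transcript length and to sequencing depth. No value for a single sample can be shown, no error between replicates can be computed, and the read depth is unknown. The spread between samples enters solely through the p and q values of the authors' own Cuffdiff test, with calls made here at a q of 0.05 or less. Rows of the same gene were summed (79 members have a single row and 4 have several), and ratios are log2 values of the sums without a pseudocount. Terf2 summed to 0.202 FPKM in TRF2-depleted cortex against 3.59 FPKM in control cortex in the authors' deposited table, where no row of it passed the test (smallest p = 0.105, q = 0.576). In hippocampus the same sum was 0.753 FPKM in DKO, 0.883 FPKM in TRF2-depleted and 2.01 FPKM in control tissue, where its rows were not tested. The tissue labels fit their markers: 6 genes of CA pyramidal neurons summed to between 149 and 172 FPKM in the hippocampus conditions and to 38.3 and 41.6 FPKM in TRF2-depleted and control cortex, per the authors' deposited tables.

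Each ribosome holds most of these proteins in a single copy, and cells make them in matched amounts. Their messages are short, abundant and, in mammals, usually begin with a 5′ terminal oligopyrimidine tract (TOP), a cytidine followed by a run of pyrimidines, through which mTORC1 signalling and the protein LARP1 adjust their translation and stability. Neurons also carry these messages into dendrites and axons. Free ribosomal proteins such as Rpl5 and Rpl11 bind Mdm2 when ribosome assembly is disturbed and stabilise p53, which is also the main effector of unprotected chromosome ends.

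The annotated starts of the genes that the comparisons below turn on are shown first, because the tract is the sequence feature that this family is known for. RefSeq (GRCm38.p6, the mm10 build) gave a start window for 63 of the 83 members. Each line holds 50 bases, 25 before the annotated start and 25 from it on, and capitals mark a tract that begins with C at the start itself and goes on with at least 4 further C or T. Fau is the member called in cortex. Rpl38, the most abundant member, and Rps21, Rpl35, Rps18 and Rpl14 were among the 17 members with an unadjusted p under 0.05 in DKO hippocampus.
Fau, chr19:6057922-6057971, plus strand: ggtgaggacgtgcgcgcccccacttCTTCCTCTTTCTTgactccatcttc
Rpl38, chr11:114668555-114668604, plus strand: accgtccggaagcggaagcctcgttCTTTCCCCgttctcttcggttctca
Rps21, chr2:180257354-180257403, plus strand: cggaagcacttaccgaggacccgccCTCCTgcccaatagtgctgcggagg
Rpl35, chr2:39005107-39005156, minus strand: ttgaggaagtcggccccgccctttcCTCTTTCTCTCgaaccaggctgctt
Rps18, chr17:33955641-33955690, minus strand: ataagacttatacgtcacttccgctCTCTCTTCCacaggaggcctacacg
Rpl14, chr9:120571492-120571541, plus strand: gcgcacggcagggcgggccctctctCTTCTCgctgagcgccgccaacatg
The following windows hold no such tract at the annotated base. Those of Rpl39, Rpl41, Rpl11, Rps13, Rpl13 and Rpl19 belong to the other genes of the 17 with a window, and Rps21 has a further annotated start beside the one above. Capitals in a window of Rpl19 mark a run of C or T that ends just before the start. Rps12 and Rps28 were lower in TRF2-depleted cortex at an unadjusted p under 0.05.
Rpl39, chrX:37085198-37085247, minus strand: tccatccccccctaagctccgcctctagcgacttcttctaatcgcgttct
Rpl41, chr10:128549144-128549193, minus strand: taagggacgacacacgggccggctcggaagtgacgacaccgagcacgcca
Rpl11, chr4:136053369-136053418, minus strand: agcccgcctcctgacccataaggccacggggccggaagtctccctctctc
Rps13, chr7:116334166-116334215, minus strand: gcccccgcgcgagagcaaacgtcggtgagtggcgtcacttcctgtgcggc
Rpl13, chr8:123102325-123102374, plus strand: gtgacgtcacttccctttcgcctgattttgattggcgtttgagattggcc
Rpl19, chr11:98026685-98026734, plus strand: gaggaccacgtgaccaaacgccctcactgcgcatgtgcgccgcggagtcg
Rpl19, chr11:98026899-98026948, plus strand: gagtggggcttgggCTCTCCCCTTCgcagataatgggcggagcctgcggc
Rps21, chr2:180257424-180257473, plus strand: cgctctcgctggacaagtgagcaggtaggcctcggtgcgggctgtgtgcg
Rps12, chr10:23787185-23787234, minus strand: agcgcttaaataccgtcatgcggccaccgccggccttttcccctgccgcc
Rps28, chr17:33824538-33824587, minus strand: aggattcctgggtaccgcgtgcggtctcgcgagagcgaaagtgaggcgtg
The tract lay at the annotated start in 14 of the 63 members (22.2%), and in 813 of 27025 genes with a window (3.01%). A run of at least 8 C or T that covers the start or comes within 5 bases of it was found in 24 members (38.1%), against 11.4% of all genes. An annotated start can be some bases away from the base most used in brain. A missing tract therefore says only that none begins at the annotated base, and a run of C or T can lie elsewhere in the window. In the whole windows of 300 bases, 250 of them before the start, the Ets family motif CCGGAAG was present on either strand in 26 of 63 members (41.3%), against 9.93% of all genes. The GC box GGGCGG was present in 61.9% of members, against 38.2% of all genes, and TATAAA in 9.52%, against 15.7%. The YY1 motif AAGATGGC was found in 9.52% of members against 3.19%, and the E-box CACGTG in 9.52% against 8.09%. A gene with several annotated starts was counted once where any of its windows held the motif, and overlapping motifs were each counted.

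In the genome the family is scattered and compact. By the GENCODE M21 annotation its members lie on 20 chromosomes, with at most 14 on the same chromosome and 4 on X. The median coding length was 456 bases (138 to 1257), against 1173 bases over all protein-coding genes. In all, 30 members carry snoRNA genes inside them, 58 snoRNAs together, and 60 members have named pseudogenes, 293 in total. Reads from such near-identical copies can be divided between a gene and its copies in a way the tables do not show.

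The family was among the most abundant messages of both tissues. Its summed FPKM made up 6.57% of the table total in TRF2-depleted cortex and 6.61% in control cortex. In hippocampus the family held 8.24% in DKO, 7.78% in TRF2-depleted and 7.39% in control tissue. The median member had 112 FPKM in TRF2-depleted and 116 FPKM in control cortex, and 142, 136 and 128 FPKM in DKO, TRF2-depleted and control hippocampus, per the authors' deposited table. Between 71 and 73 of the 83 members had at least 50 FPKM in each condition, and 70 or 71 were among the 500 most abundant genes. The 60S genes summed to 1.22 times the 40S genes in TRF2-depleted cortex and to 1.24 times in control cortex. The same ratio was 1.31 in DKO, 1.29 in TRF2-depleted and 1.32 in control hippocampus, a narrower range than that of the shares. Among the 60S genes, Rpl27, Rpl37 and Rpl39 were far lower in cortex than in hippocampus, and Rpl32 was far lower in hippocampus. The 40S gene Rps24 was also far lower in hippocampus. The part of such genes in the difference of ratios and shares between the tissues was not tested.

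**Figure D1:**
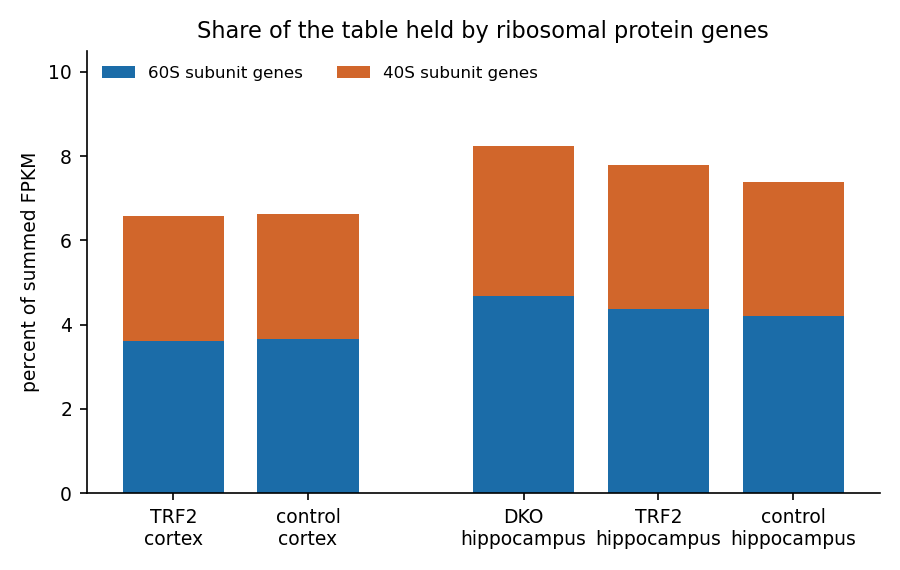
Percent of the summed FPKM of the table held by the 60S genes (blue) and the 40S genes (orange) in each of the 5 pooled conditions, with 1 value per condition and no error. The bars reach 6.57% and 6.61% in TRF2-depleted and control cortex, and 8.24%, 7.78% and 7.39% in DKO, TRF2-depleted and control hippocampus.

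The order of levels within the family was alike in both tissues at its top. Rpl38, a small 60S protein needed in mice for the translation of a set of Hox messages, was the most abundant member, with 622 FPKM in control cortex and 707 FPKM in control hippocampus in the authors' deposited table. Next in control cortex the authors' deposited table had Rplp1 (430 FPKM), Rps27 (410 FPKM), Rps21 (400 FPKM), Rps29 (394 FPKM) and Rpl41 (392 FPKM). The same 5 genes followed Rpl38 in control hippocampus, where the authors' deposited table gave Rps27 507, Rplp1 485, Rps21 460, Rpl41 452 and Rps29 368 FPKM. With no error between samples, the order among these neighbours cannot be told from their spread. Proteins that stand in equal numbers in the ribosome had messages at widely separate FPKM values. Rpl15 had 58.7 FPKM and Rpl38 622 FPKM in control cortex in the authors' deposited table. Their coding lengths are 612 bases for Rpl15 and 210 bases for Rpl38. FPKM is set relative to the length of the whole transcript, of which the coding sequence is a part. The part of length in this gap and in the order of levels was not tested.

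At the bottom stood the tissue-restricted paralogs. Rpl10l, the testis copy of Rpl10, was listed at 0 in all 5 conditions. Rpl39l, the germ-line copy of Rpl39, had 0.107 FPKM in TRF2-depleted and 0.207 FPKM in control cortex in the authors' deposited table and was listed at 0 in the 3 hippocampus conditions. Rpl3l, the striated muscle copy of Rpl3, lay between 0.0287 and 0.158 FPKM across the 5 conditions of the authors' deposited tables, where Rpl3 itself lay between 120 and 162 FPKM. The copies that brain does use were Rpl36al, a retrocopy of Rpl36a, and Rps27l, a p53-responsive paralog of Rps27. In control cortex the authors' deposited table gave Rpl36al 33.3 FPKM beside 67.5 FPKM for Rpl36a, and Rps27l 14.4 FPKM beside 410 FPKM for Rps27.

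Control cortex and control hippocampus were normalized separately, so levels across them are set side by side without a test. Of the 79 members with at least 10 FPKM in either control, 73 lay within 4-fold of each other. Their log2 ratio of control cortex over control hippocampus had a median of -0.21 and ran from -0.72 to 0.71, beside a median of -0.10 over all 11414 genes with at least 1 FPKM. The other 6 members differed far more. Among them, Rpl37 had 1.27 FPKM in control cortex and 93.7 FPKM in control hippocampus in the authors' deposited tables, and Rpl27 had 1.27 FPKM in control cortex and 69.5 FPKM in control hippocampus. Rpl39 had 11.9 FPKM in control cortex and 161 FPKM in control hippocampus in the authors' deposited tables. In the other direction the authors' deposited tables gave Rpl32 130 FPKM in control cortex and 2.54 FPKM in control hippocampus, and Rps24 138 FPKM in control cortex and 5.22 FPKM in control hippocampus. Rpl30 was low in both, at 3.77 FPKM in control cortex and 1.75 FPKM in control hippocampus in the authors' deposited tables.

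These genes encode core proteins that every cell uses, and each gap named here stood in TRF2-depleted tissue as well as in its control. Rpl32, for example, had 128 FPKM in TRF2-depleted cortex, per the authors' deposited table, but 0.917 FPKM in DKO and 0.420 FPKM in TRF2-depleted hippocampus. Rpl27 was listed at 0 in TRF2-depleted cortex, and its row was not tested there. A fold of at least 4 between the tables was found for 6 of 79 members (7.59%), against 173 of 3672 genes with at least 10 FPKM in either control (4.71%). The members with the most named pseudogenes are Rpl31 (24) and Rps12 (23). They had 75.5 and 137 FPKM in control cortex, and 72.7 and 168 FPKM in control hippocampus, in the authors' deposited tables. Of the genes that were low, Rpl30 has 9 named pseudogenes, Rpl27 has 3, Rps24 has 2, and Rpl32 and Rpl39 have 1 each, while none was named for Rpl37. The part of these copies in the low values was not tested, and ratios of these genes in the tissue where they are low rest on very few FPKM.

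**Figure D2:**
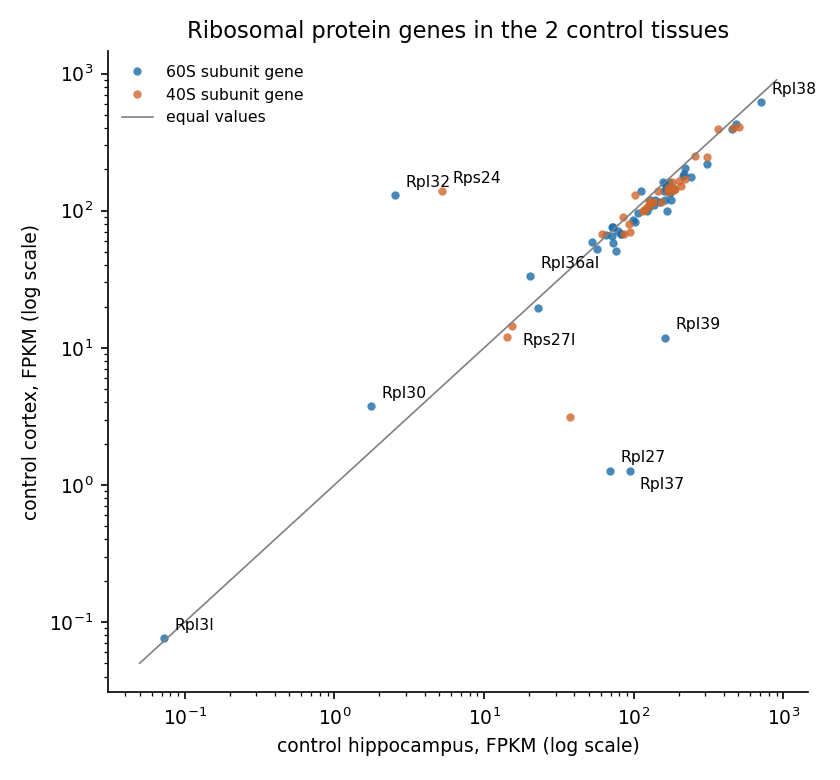
Summed FPKM of each ribosomal protein gene in control cortex (vertical, log scale) against control hippocampus (horizontal, log scale), with 60S genes in blue, 40S genes in orange and a line of equal values. Most genes follow the line, while Rpl32 and Rps24 stand far above it (130 and 138 FPKM in control cortex) and Rpl39, Rpl27 and Rpl37 far below it (11.9, 1.27 and 1.27 FPKM in control cortex).

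The cortex comparison asks what depletion of TRF2 does to the tissue at 3 months. The family as a whole stood level between TRF2-depleted and control cortex. Of 79 members with at least 1 FPKM and a ratio, 39 were higher and 40 lower, and 61 lay within 10% of control. Their median log2 ratio was -0.0013, with a quartile range of -0.10 to 0.07. Over all 11084 genes the median was -0.03 and 44.8% were higher, beside 49.4% of the family. By subunit, the median was -0.0042 over 46 genes of the 60S subunit and 0.0014 over 33 of the 40S subunit.

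Fau was the single member that passed the test in cortex. Its message encodes a ubiquitin-like protein fused to the small-subunit protein eS30, which is cut free after translation. Fau fell to 111.8 FPKM in TRF2-depleted cortex, against 145.2 FPKM in control cortex, per the authors' deposited table (log2 ratio -0.38, p = 0.0003, q = 0.0329 by Cuffdiff). That makes 1 called member of 78 tested, where 0.335% of all 8658 tested genes were called and 0.254% were called lower. The call is not kept when the p-values of the cortex comparison are adjusted on their own by the Benjamini-Hochberg method, which gave Fau an adjusted p of 0.13. In hippocampus Fau had 208 FPKM in DKO, 182 FPKM in TRF2-depleted and 189 FPKM in control tissue in the authors' deposited table, with p = 0.264 for DKO and p = 0.647 for TRF2-depleted against control. Whether its ratio differs between the tissues was not tested.

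The next members in cortex missed the threshold on q. At an unadjusted p under 0.05 there were 4 of 78 tested members (5.13%), against 6.81% of all tested genes, so the share lay near the background. Besides Fau these included Rps12, a small-subunit protein that acts in cell competition in Drosophila, with 118 FPKM in TRF2-depleted and 137 FPKM in control cortex in the authors' deposited table (p = 0.0441, q = 0.449). Rps28, a small-subunit protein near the message exit channel, had 138 FPKM in TRF2-depleted and 166 FPKM in control cortex in the authors' deposited table (p = 0.0459, q = 0.457). Rpl36a, a large-subunit protein of the E site, was the member on the higher side, with 81.4 FPKM in TRF2-depleted and 67.5 FPKM in control cortex in the authors' deposited table (p = 0.0428, q = 0.444).

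Among the remaining cortex ratios, the widest downward ones belonged to low values. Rpl39, which lines the peptide exit tunnel, had 5.73 FPKM in TRF2-depleted and 11.9 FPKM in control cortex in the authors' deposited table (p = 0.476). Rps27l had 10.9 FPKM in TRF2-depleted and 14.4 FPKM in control cortex, per the authors' deposited table (log2 ratio -0.41, p = 0.136). On the upper side, after Rpl36a, came Rpl23 (log2 ratio 0.19, p = 0.0562 in the authors' deposited table), Rps15a (0.17), Rps26 (0.15) and Rpl15 (0.14). None of these passed the test.

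In TRF2-depleted hippocampus the family stood a little above control hippocampus, but no member passed the test. Of 80 members with a ratio, 52 were higher and 28 lower, with a median log2 ratio of 0.06, or 4.37% on the linear scale. Over all 11249 genes the median was 0.0016 and 50.3% were higher, beside 65.0% of the family. Of 80 tested members 0 were called by Cuffdiff at q, where 0.183% of all 9824 tested genes were called. At an unadjusted p under 0.05 there were 2 members (2.50%), both higher, against 5.45% of all tested genes and 2.71% in the higher direction. The median was 0.06 over 47 genes of the 60S subunit and 0.08 over 33 of the 40S subunit.

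Of the 2 members at an unadjusted p under 0.05, Rps29, a small zinc-binding protein of the small subunit's head, had 471 FPKM in TRF2-depleted and 368 FPKM in control hippocampus, per the authors' deposited table (log2 ratio 0.36, p = 0.0049, q = 0.489). The retrocopy Rpl36al had a wide ratio with little support, with 40.6 FPKM in TRF2-depleted and 20.4 FPKM in control hippocampus, per the authors' deposited table (log2 ratio 1.00, p = 0.0807). Rps21 (log2 ratio 0.22, p = 0.0720 in the authors' deposited table) and Rps16 (0.21) followed.

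The lowest ratios in TRF2-depleted hippocampus, among members with at least 10 FPKM, were small. They were those of Rpl22 (log2 ratio -0.18), Rplp0 (-0.16), Rpl5 (-0.11), Rps27 (-0.08) and Rps6 (-0.07). Rplp0 forms the base of the ribosomal stalk, and it had 65.5 FPKM in TRF2-depleted and 73.1 FPKM in control hippocampus in the authors' deposited table (p = 0.212). Rps6 is the small-subunit protein that S6 kinase phosphorylates. It had 82.1 FPKM in TRF2-depleted and 86.2 FPKM in control hippocampus in the authors' deposited table (p = 0.565).

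The DKO hippocampus stood furthest from control. Of 80 members with a ratio, 68 were higher and 12 lower in DKO, and 32 lay within 10% of control. The median log2 ratio was 0.15, or 10.7% on the linear scale, with a quartile range of 0.05 to 0.24. Over all 11271 genes the median was 0.01 and 52.1% were higher, beside 85.0% of the family. The median log2 ratio was 0.14 over 47 genes of the 60S subunit and 0.15 over 33 of the 40S subunit. Cuffdiff called 0 of 80 tested members at q, where 0.204% of all 9816 tested genes were called, and the smallest q of a member was 0.372. At an unadjusted p under 0.05 there were 17 members (21.25%), all higher in DKO, against 7.48% of all tested genes and 4.26% in the higher direction.

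**Figure D3:**
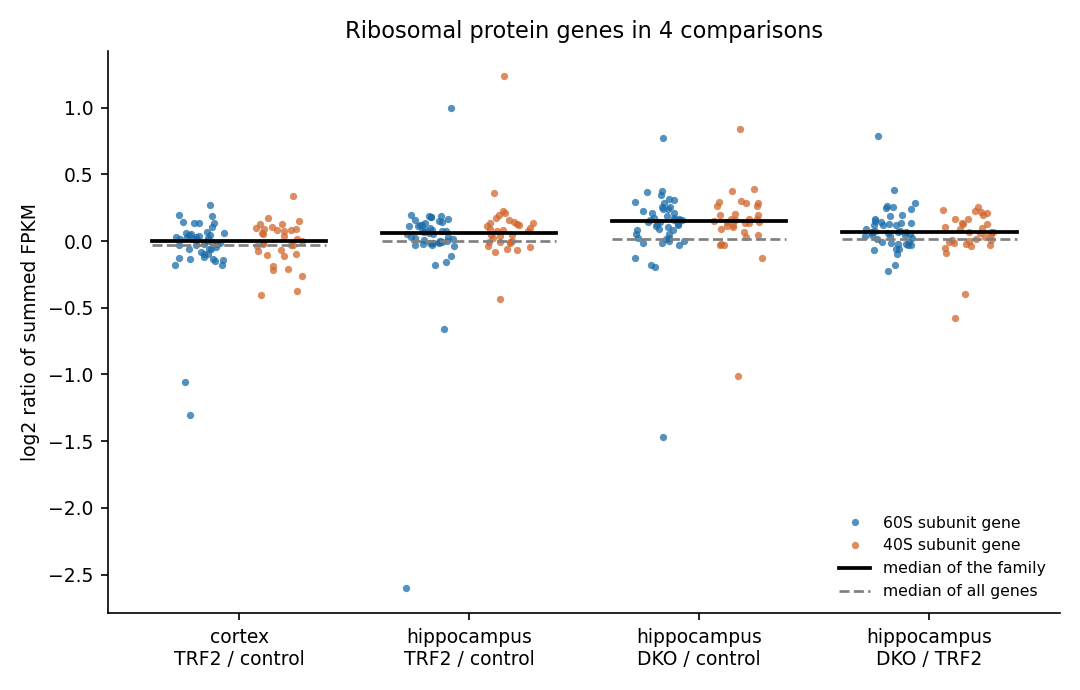
Log2 ratio of summed FPKM (vertical) of each ribosomal protein gene with at least 1 FPKM in the 4 comparisons, with 60S genes in blue, 40S genes in orange, a solid bar at the family's median and a dashed bar at the median of all genes. The family's median lies at -0.0013 in cortex, 0.06 for TRF2-depleted over control hippocampus, 0.15 for DKO over control and 0.07 for DKO over TRF2-depleted.

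The 17 members came from both subunits and spanned a wide range of levels. Rps20, another protein of the small subunit's head, had 196 FPKM in DKO, 168 FPKM in TRF2-depleted and 151 FPKM in control hippocampus in the authors' deposited table (DKO over control log2 ratio 0.38, p = 0.00235, q = 0.372). Rpl19, which helps bridge the subunits, summed to 274 FPKM in DKO, 211 FPKM in TRF2-depleted and 212 FPKM in control hippocampus in the authors' deposited table (p = 0.0038, q = 0.437). Rpl39 had 209 FPKM in DKO, 184 FPKM in TRF2-depleted and 161 FPKM in control hippocampus in the authors' deposited table (p = 0.0053, q = 0.495). For Rps20 and Rpl39 the TRF2-depleted value stood between the others, while for Rpl19 it lay at the control value.

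Other large-subunit genes were also highest in DKO. Rpl29 had 129 FPKM in DKO, 106 FPKM in TRF2-depleted and 101 FPKM in control hippocampus in the authors' deposited table (p = 0.0044 for DKO over control). Rpl13 had 225 FPKM in DKO, 205 FPKM in TRF2-depleted and 182 FPKM in control hippocampus in the authors' deposited table (p = 0.0081). Rpl38, the most abundant member, had 881 FPKM in DKO, 746 FPKM in TRF2-depleted and 707 FPKM in control hippocampus in the authors' deposited table (p = 0.0292). Rpl41, the shortest protein of the ribosome, had 534 FPKM in DKO, 447 FPKM in TRF2-depleted and 452 FPKM in control hippocampus in the authors' deposited table (p = 0.0409).

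Among small-subunit genes, Rps27a encodes ubiquitin fused to eS31 and is thus a source of both. It had 111 FPKM in DKO, 92.9 FPKM in TRF2-depleted and 84.6 FPKM in control hippocampus, per the authors' deposited table (log2 ratio 0.39, p = 0.0127). Rps29 stood higher in DKO and in TRF2-depleted tissue, with 453 FPKM in DKO, 471 FPKM in TRF2-depleted and 368 FPKM in control hippocampus in the authors' deposited table (p = 0.0103 for DKO over control). Rps21 had 560 FPKM in DKO, 537 FPKM in TRF2-depleted and 460 FPKM in control hippocampus in the authors' deposited table (p = 0.0152). Others at this p were Rpl35, Rpl11, Rps18, Rps13, Rpl23a and Rpl14, with log2 ratios of DKO over control between 0.25 and 0.29. TRF2-depleted over control and DKO over control share their control condition.

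**Figure D4:**
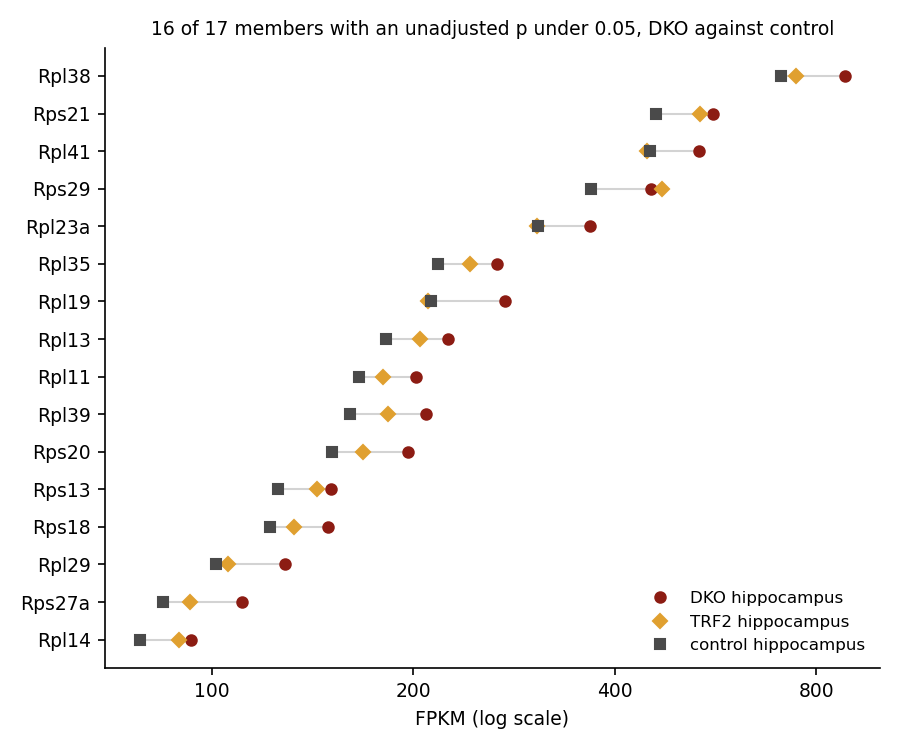
FPKM (log scale) of 16 of the 17 ribosomal protein genes with an unadjusted p under 0.05 in DKO over control hippocampus, with DKO as circles, TRF2-depleted as diamonds and control as squares, 1 pooled value each. The genes were chosen by the p of that comparison, in either direction, so a gap between DKO and control was fixed by the choice. DKO lies above control in all 16. The TRF2-depleted value lies near control for Rpl19 (211 against 212 FPKM) and above DKO for Rps29 (471 against 453 FPKM).

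Rpl11 and Rpl5, which together with 5S rRNA form the particle that binds Mdm2, lay on opposite sides of control. Rpl11 had 202 FPKM in DKO, 180 FPKM in TRF2-depleted and 166 FPKM in control hippocampus in the authors' deposited table (DKO over control log2 ratio 0.28, p = 0.0183). Rpl5 had 50.6 FPKM in DKO, 53.0 FPKM in TRF2-depleted and 57.2 FPKM in control hippocampus, per the authors' deposited table (log2 ratio -0.18, p = 0.178). The difference between these ratios was not tested. Others on the lower side in DKO were Rpl22 (-0.20), Rps15a (-0.13), Rpl15 (-0.13) and Rpl10 (-0.03). Rpl22 binds a small RNA of the Epstein-Barr virus in human cells, and mice without it are viable.

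Wide upward ratios of DKO over control were not confined to the 17. Rpl36al had 34.7 FPKM in DKO hippocampus against 20.4 FPKM in control in the authors' deposited table (log2 ratio 0.77, p = 0.122). Its parent Rpl36a was level across the hippocampus, at 82.2 FPKM in DKO, 82.7 FPKM in TRF2-depleted and 82.1 FPKM in control tissue in the authors' deposited table.

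DKO was also set directly against TRF2-depleted hippocampus. Of 79 members with a ratio, 56 were higher and 23 lower in DKO, with a median log2 ratio of 0.07, against a median of 0.01 and 52.2% higher over all 11282 genes. Cuffdiff called 0 of 79 tested members at q, where 0.173% of all 9818 tested genes were called. At an unadjusted p under 0.05 there were 5 members (6.33%), all higher, against 5.37% of all tested genes and 3.27% in the higher direction. They were Rpl19 (row values of 270 FPKM in DKO and 201 FPKM in TRF2-depleted tissue, p = 0.00205 and q = 0.359 in the authors' deposited table), Rpl29, Rpl41, Rpl23a and Rpl12. Rpl12, part of the stalk base, had 150 FPKM in DKO and 127 FPKM in TRF2-depleted hippocampus, per the authors' deposited table (p = 0.0407). Among the lowest ratios were those of Rpl36al (-0.23), Rpl34 (-0.18), Rpl15 (-0.10) and Rps15a (-0.09), and none of them passed the test.

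The 3 stalk proteins, which recruit the elongation factors, had messages at separate FPKM values. Their coding lengths are 342 bases for Rplp1, 345 bases for Rplp2 and 951 bases for Rplp0. In control hippocampus the authors' deposited table gave Rplp1 485 FPKM, Rplp2 138 FPKM and Rplp0 73.1 FPKM. Their log2 ratios were 0.12 for Rplp1, 0.19 for Rplp2 and -0.01 for Rplp0 in DKO over control hippocampus. In TRF2-depleted over control cortex they were -0.03, -0.13 and -0.05, and no stalk gene passed the test in any of the 4 comparisons.

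The higher values in hippocampus were shared by other short and abundant messages. Among genes with a mean of at least 50 FPKM and a coding length of up to 450 bases, 31 of 31 members were higher in DKO than in control, with a median log2 ratio of 0.17. Of the other genes in that class 89 of 106 were higher, with a median of 0.15. Above that length 34 of 42 members were higher (median 0.12), against 251 of 379 other genes (median 0.06). In TRF2-depleted over control hippocampus the short class had a median of 0.10 in 31 members and 0.08 in 107 other genes. In the longer class of that comparison 24 of 42 members were higher (57.1%, median 0.03), against 220 of 371 other genes (59.3%, median 0.02). Genes outside the family with at least 50 FPKM had an unadjusted p under 0.05 in the higher direction in 9.46% of cases in DKO over control (47 of 497), where all genes had 4.26%. The part of level and length in the family's ratios was not tested.

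**Figure D5:**
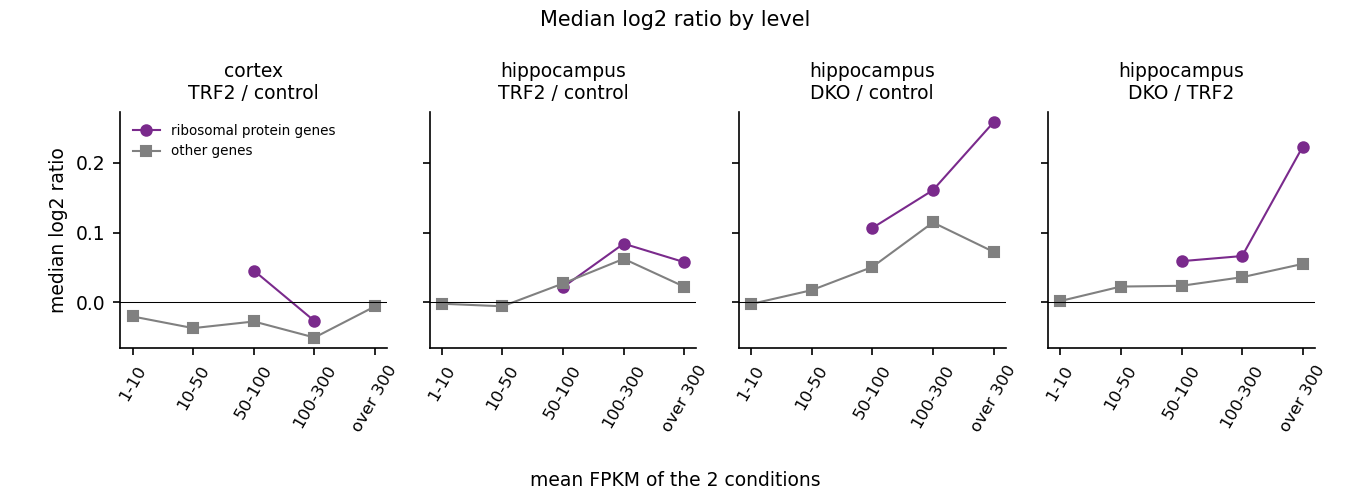
Median log2 ratio (vertical) by the mean FPKM of the compared conditions (horizontal classes) in the 4 comparisons, for ribosomal protein genes (purple circles) and all other genes (grey squares), with classes of fewer than 8 genes not drawn. For DKO over control hippocampus the median at 100 to 300 FPKM is 0.16 in 46 ribosomal protein genes and 0.11 in 155 other genes, and above 300 FPKM it is 0.26 in 8 and 0.07 in 30.

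Within the family, the ratios of DKO over control were also split by the tract and by the snoRNA genes. Members with the tract at the annotated start had a median log2 ratio of 0.18 (14 genes, 11 higher), and those with a window but no tract 0.14 (46 genes, 39 higher). Hosts of snoRNAs had a median of 0.14 (30 genes) and the other members 0.16 (50 genes). The differences between these groups were not tested.

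Markers of other cells also differed between the hippocampus conditions. The 10 choroid plexus markers summed to 19.1 FPKM in DKO, 509 FPKM in TRF2-depleted and 288 FPKM in control hippocampus in the authors' deposited table. Ttr, which carries thyroid hormone, alone had 5.52, 472 and 264 FPKM in that order. The median log2 ratio of those with at least 1 FPKM was -2.96 in DKO (7 genes) and 0.78 in TRF2-depleted (9 genes) over control hippocampus. The markers summed to 9.45 FPKM in TRF2-depleted and 107 FPKM in control cortex, where Otx2 was listed at 0. Ttr alone had 1.15 and 93.3 FPKM there. Of 6 tested choroid plexus markers, 3 were called lower in DKO than in control hippocampus, where 0.204% of all tested genes were called. In TRF2-depleted over control hippocampus 0 of 6 tested were called, where 0.183% of all tested genes were. Ttr was the 1 called, lower, of 2 tested in TRF2-depleted cortex, where 0.335% of all tested genes were called. The 8 dentate granule neuron markers were lower in DKO and in TRF2-depleted tissue, with sums of 63.4 FPKM in DKO, 53.3 FPKM in TRF2-depleted and 92.3 FPKM in control hippocampus in the authors' deposited table. Of 7 tested, 3 were called lower in DKO and 5 in TRF2-depleted hippocampus, where 0.204% and 0.183% of all tested genes were called. The 8 meningeal markers summed to 323 FPKM in DKO, 314 FPKM in TRF2-depleted and 202 FPKM in control hippocampus in the authors' deposited table. Ptgds alone had 283, 265 and 165 FPKM in that order. It was the 1 called higher, of 6 tested, in DKO and in TRF2-depleted over control hippocampus. The part of these cells in the family's ratios was not tested. In bulk tissue, the number of cells of a type, their RNA per cell and the amount of neighbouring tissue taken with a sample cannot be told apart.

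The other genes of protein synthesis were near level in the same tables. Median log2 ratios below are given for DKO over control hippocampus, TRF2-depleted over control hippocampus and TRF2-depleted over control cortex, in that order. They were 0.03, -0.01 and -0.04 for 12 elongation factors, and -0.06, -0.02 and -0.0020 for initiation factors (41, 41 and 40 genes with at least 1 FPKM). For other TOP messages (17, 17 and 16 genes), those of translation factors and related proteins, they were 0.01, -0.02 and -0.02. Cuffdiff called 0 members of these 3 lists at q in any comparison, where 0.173% to 0.335% of all tested genes were called. At most 4 per list and comparison had an unadjusted p under 0.05, where 5.37% to 7.48% of all tested genes had it. The 4 were among 16 tested other TOP messages in DKO over control hippocampus, 2 higher and 2 lower. The medians of the family in the same order were 0.15, 0.06 and -0.0013.

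The factors that build ribosomes and the signalling that acts on them were read in the same order, with no test of their difference from the family. For biogenesis factors with at least 1 FPKM (42, 42 and 41 genes) the medians were 0.01, -0.04 and -0.02. For genes of RNA polymerase I and its factors (19, 19 and 18 genes) they were 0.07, 0.04 and 0.03. For mTORC1 and S6 kinase signalling (20 genes in each comparison) they were 0.05, -0.02 and -0.07. Cuffdiff called 0 members of these lists, where 0.173% to 0.335% of all tested genes were called. At most 3 per list and comparison had an unadjusted p under 0.05, where 5.37% to 7.48% of all tested genes had it. In DKO over control hippocampus there were 3 of 16 tested genes of RNA polymerase I and its factors, 2 higher and 1 lower. Biogenesis factors had 3 of 42 tested there, 1 higher and 2 lower, and 7.48% of all tested genes had that p. For mTORC1 and S6 kinase signalling 2 of 18 tested genes had it in cortex, both lower, against 6.81% of all tested genes. Npm1, a nucleolar chaperone of ribosome assembly, had 26.6 FPKM in DKO and 35.7 FPKM in control hippocampus, per the authors' deposited table (log2 ratio -0.43, p = 0.0004, q = 0.149). Rps6kb1, the S6 kinase itself, had 1.57 FPKM in TRF2-depleted and 4.24 FPKM in control cortex in the authors' deposited table (p = 0.0105, q = 0.251). Mtor had 10.4 FPKM in DKO and 6.42 FPKM in TRF2-depleted hippocampus, per the authors' deposited table (p = 0.0012, q = 0.290).

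The ribosome of mitochondria is built from a separate set of proteins. Its genes (75, 75 and 76 with at least 1 FPKM) had medians of 0.06, -0.0015 and 0.02 in that order. Cuffdiff called 0 of them, where 0.204%, 0.183% and 0.335% of all tested genes were called. At an unadjusted p under 0.05 there were 5 of 75, 0 of 75 and 3 of 74 tested genes. Over all tested genes the shares at that p were 7.48%, 5.45% and 6.81%, so these counts were not above the background. The short subunits of oxidative phosphorylation, chosen for their length and level, were higher in more members. These were 42 of 45 in DKO over control hippocampus (median 0.26) and 40 of 45 in TRF2-depleted over control hippocampus (median 0.17). In cortex 28 of 46 were higher (median 0.03). At an unadjusted p under 0.05 there were 15 of 45 tested subunits in DKO and 7 of 45 in TRF2-depleted over control hippocampus, all higher. The ribosomal protein genes had 17 of 80 and 2 of 80 there. In cortex 3 of 46 tested subunits were higher and 2 lower at that p. Cox7c, a cytochrome oxidase subunit, was the 1 called among them. It rose to 67.8 FPKM in TRF2-depleted hippocampus, against 39.3 FPKM in control, in the authors' deposited table (q = 0.0301 by Cuffdiff). That makes 1 called of 45 tested subunits in that comparison, where 0.183% of all tested genes were called.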

How the data were processed

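Libraries were made from RNeasy-extracted total RNA with NEBNext Ultra, according to the labels. The tools (CASAVA 1.8, TopHat2, Cufflinks and Cuffdiff) and the mm10 build are those of the submitters' processing notes, with settings, annotation and further versions not given in the sources used here. Values as deposited by the authors are an FPKM value per condition and coding-sequence row, and a p-value and q-value per row, by the names of the file headers. Untested rows gave no p or q. Ratios, sums, shares and medians were computed here with Python 3.11.15, numpy 2.4.6 and pandas 2.3.3, figures with matplotlib 3.10.9, and the calculations were checked on simulated data. The members and lists were chosen with earlier results of these data known.

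Members named are those with an unadjusted p under 0.05, the 5 highest and 5 lowest ratios per comparison at 10 FPKM or more, the highest and lowest control levels, paralogs with their parents, the stalk and the ubiquitin fusions. Of the pathway lists, called members or the smallest p-values are named, where a result turns on them. Results of some genes that this rule names are not reported here, while counts, sums and medians include every member. The genes far apart between the tissue tables were chosen after their values were seen. Rps3a1 was counted as a member, and Rpl22l1 and Rpl7l1 were added as an alternative. The labels do not say which animal a sample came from, and the authors' p-values cover the spread of these samples, which may be technical. Whether the pooled values include the sample placed in no group is not known here. Alternatives covered the threshold, the adjustment, the minimum FPKM, a pseudocount, centring, the row used and the member rule.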

Additional observations from a re-analysis of the deposited data

How the results depend on the processing

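Fau was the 1 member called in cortex at a q of 0.05. Cortex had 0 called members at a q of 0.01, 0 when that comparison was adjusted alone, and 4 at an unadjusted p under 0.05. At an unadjusted p the other counts were 2 for TRF2-depleted and 17 for DKO over control hippocampus, and 5 for DKO over TRF2-depleted hippocampus. Without the 100 most abundant other genes in the total, the family's share was 8.68% in TRF2-depleted and 8.66% in control cortex, and 10.4%, 9.93% and 9.49% in DKO, TRF2-depleted and control hippocampus. With the most abundant row of each gene it was 6.83% and 6.89% in cortex, and 8.59%, 8.12% and 7.70% in hippocampus, in the same order. Under both, the share in hippocampus was highest in DKO and lowest in control, while in cortex the order of the conditions turned under the first. Among the other 71 alternatives, no count of calls changed. Medians over the 9 settings ran from 0.13 to 0.15 for DKO over control hippocampus, 0.06 to 0.07 for TRF2-depleted over control, 0.05 to 0.07 for DKO over TRF2-depleted, and -0.0042 to 0.02 in cortex, where the sign turned.

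No paired analysis was possible because the tables hold 1 pooled value per condition. Leaving out a sample could not be run for the same reason. Read depth is unknown, so no counting error or detection limit can be given. Rpl30, Rpl32 and Rps24 in hippocampus, and Rpl27, Rpl37 and Rpl39 in cortex, rest on few FPKM.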

Other observations

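The near relatives that the naming rule leaves out were read in the same way. Rpl22l1, the paralog of Rpl22 that shares its RNA-binding role, had 69.4 FPKM in DKO, 64.2 FPKM in TRF2-depleted and 54.0 FPKM in control hippocampus in the authors' deposited table (DKO over control log2 ratio 0.36, p = 0.0239, q = 0.810), while Rpl22 itself had 20.0, 20.2 and 22.9 FPKM in the same order. In cortex Rpl22l1 had 56.7 FPKM in TRF2-depleted and 51.9 FPKM in control tissue in the authors' deposited table (p = 0.402). Rpl7l1 lay between 7.23 and 8.22 FPKM across the 5 conditions of the authors' deposited tables.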
